A study of Mus musculus with 8 samples.

Results

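The somatostatin receptor genes Sstr1 to Sstr5 and the ghrelin receptor gene Ghsr are described here in sorted mouse islet cells. These 6 genes were taken by name from a table of 46955 genes, with no cut on their values. The choice was made with earlier results of these data known. Expression was measured by RNA sequencing in 8 libraries from 3 cell populations of adult mice. The transdifferentiated cells (2 libraries) were beta cells that carried an alpha cell lineage label. Alpha cells (3 libraries) and beta cells (3 libraries) were sorted as well. Which libraries came from the same islets was not given in the sources used here. All cells came from crosses of Ins1-H2b-mCherry, Gcg-cre and a floxed YFP allele, so the red nuclear reporter depended on the Ins1 promoter and the yellow label on Cre made from the glucagon gene. Cells that used the glucagon gene at an earlier time keep the yellow label. Each library was a pool of islets from 10 to 12 animals of 1 sex, kept overnight in 5.5 mM glucose before sorting. The design text calls the animals triple transgenic and, in a second sentence, bitransgenic females, although 4 of the 8 pools are labelled male. Each group held male and female pools (1 male and 1 female transdifferentiated, 2 male and 1 female alpha, 1 male and 2 female beta).

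Somatostatin is secreted by islet delta cells and acts on neighbouring cells through receptors coupled to inhibitory G proteins. These receptors lower cyclic AMP, open inwardly rectifying potassium channels and restrain calcium channels, which dampens the secretion of insulin and glucagon. The ghrelin receptor couples mainly to Gq, phospholipase C and calcium release. In mouse islets it is best known from delta cells, where ghrelin raises somatostatin secretion. Adrenaline and galanin act on islet cells through other receptors of the same inhibitory kind.

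The receptor make-up of the transdifferentiated cells was close to that of beta cells for Sstr3, intermediate for Sstr2, and higher than beta cells for Sstr1. Ghsr was higher in both transdifferentiated libraries than in any alpha or beta library. Sstr4 and Sstr5 were at or near 0 reads in every library. Values are RPKM, reads scaled by gene length and by library size, and differences were tested after adding 0.5 RPKM and taking log2, so that changes of weakly expressed genes are understated. A difference was called at an adjusted p under 0.05 in limma, fitted over all 13172 genes with at least 1 RPKM in at least 2 libraries. Of the 6 receptors, 4 passed that filter (Sstr1, Sstr2, Sstr3 and Ghsr). For Sstr1, Sstr2 and Ghsr the filter was met through transdifferentiated and alpha libraries, where these genes were higher, so counts over the receptors are given as description.

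Whole reads recovered from the RPKM steps came to 1244827 and 2168302 in the transdifferentiated libraries, against 12916508 to 14100475 in alpha and 14341024 to 21402648 in beta libraries. A single read on a 2 kb gene equals 0.402 and 0.231 RPKM in transdifferentiated libraries and between 0.0234 and 0.0387 RPKM in the others. The defining markers followed the labels. The 6 alpha markers summed to 20272 and 20181 RPKM in transdifferentiated, 175655 to 204035 in alpha and 620.5 to 1958 in beta libraries. The 7 beta markers summed to 108380 and 117626 RPKM in transdifferentiated, 1047 to 1377 in alpha and 148251 to 201593 in beta libraries. Most of the alpha sums is the glucagon gene Gcg, and most of the beta sums is Ins1 and Ins2. Because the reporters used for sorting depend on Gcg and Ins1, the sort in part fixed these sums. Several titles share a number with or without a letter b, whose meaning was not given in the sources used here, as for alpha replicates 1 and 2 and beta replicates 1 and 2, so p-values measure the spread between these libraries, which may in part be technical. Both transdifferentiated libraries, alpha replicate 1 and beta replicate 1 lack the letter.

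**Figure D1:**
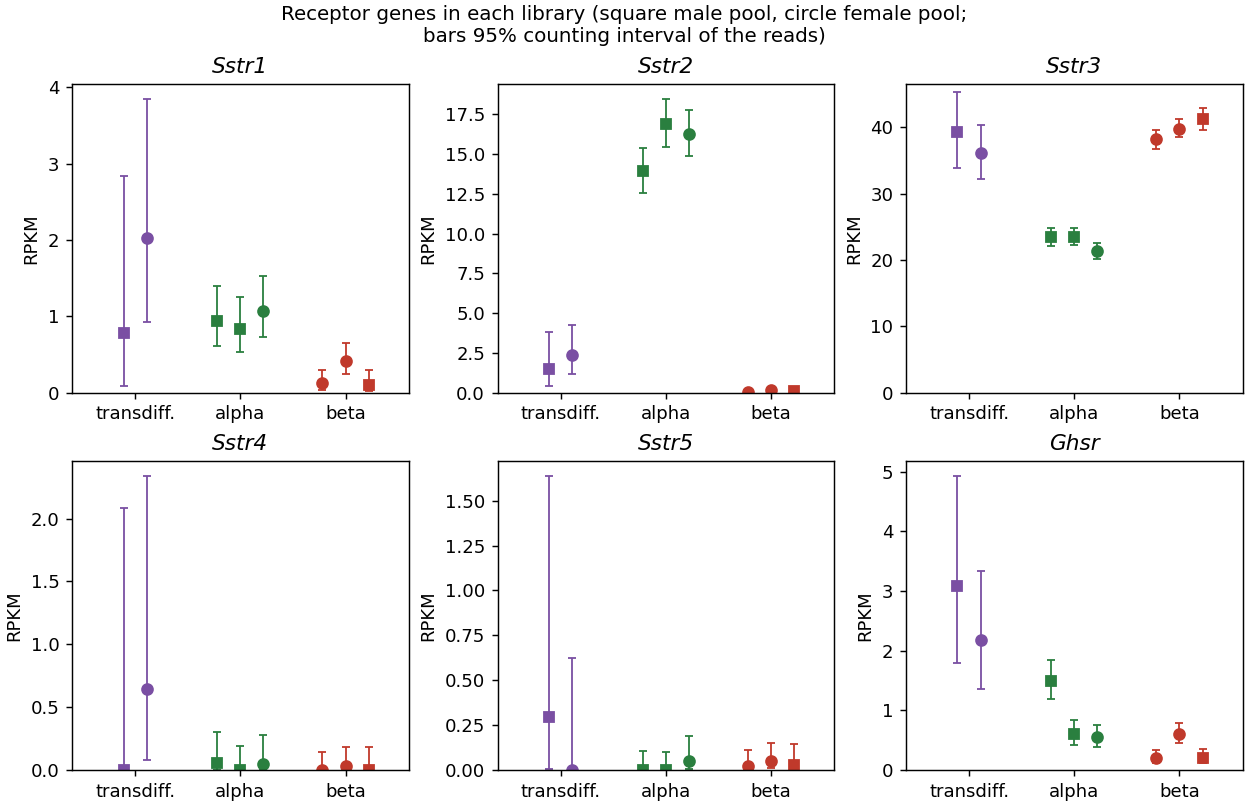
RPKM of each receptor gene in each library (vertical axis, linear, from 0) for transdifferentiated, alpha and beta cells; each point is 1 pool (square male, circle female) and each bar is the 95% counting interval of its reads. Sstr2 separates the 3 groups, Sstr3 lies near 40 RPKM in transdifferentiated and beta cells and near 23 RPKM in alpha cells, and Ghsr is highest in the 2 transdifferentiated libraries.

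Of the 4 tested receptors, 3 were called between transdifferentiated and beta cells, all higher, where 12% of all tested genes were called (9.1% higher and 2.9% lower). Between transdifferentiated and alpha cells, 3 of 4 were called, 2 higher and 1 lower, against 29.9% of all tested genes (23.2% higher and 6.67% lower). Between alpha and beta cells, 3 of 4 were called, 2 higher and 1 lower, against 43.6% of all tested genes (16.9% higher and 26.7% lower). The median log2 fold change of the 4 receptors was 1.66, 0.49 and 0.91 in these comparisons, and that of all tested genes was 0.09, 0.17 and -0.05. Of all called genes 75.8%, 77.6% and 38.8% were higher in these comparisons, against 52.7%, 51.5% and 50% with median-ratio scaling, which moved the median of all genes to -0.03, -0.04 and 0.04. With that scaling 3, 2 and 3 of the 4 receptors were called, none in another direction. The count for transdifferentiated against beta cells moved with the libraries used. It was 1 without transdifferentiated replicate 2, without beta replicate 1 or without beta replicate 3, and 2 without transdifferentiated replicate 1, without beta replicate 2 or without alpha replicate 2. A fit of the transdifferentiated and beta libraries alone called 0 of the 4 receptors, of which 3 had an unadjusted p under 0.05, and 0 of all 13172 genes by limma, of which 3337 had an unadjusted p under 0.05.

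**Figure D2:**
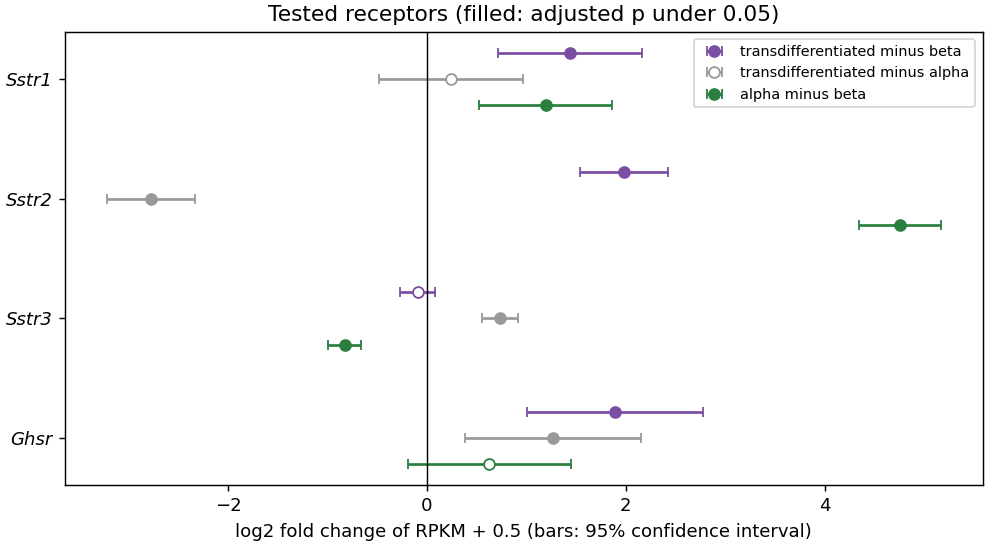
Log2 fold change of RPKM + 0.5 (horizontal axis) for the 4 tested receptors in the 3 comparisons, with 95% confidence intervals; filled points have an adjusted p under 0.05. Sstr2 has the widest span, -2.78 against alpha cells and 1.98 against beta cells, and Sstr3 lies at -0.09 against beta cells and 0.73 against alpha cells.

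Sstr3 (chr15:78537008-78544685, minus strand, GRCm38, GENCODE M21) encodes the receptor best known for its place in the primary cilium, the sensory antenna of beta cells and neurons. It had 39.3 and 36.1 RPKM in transdifferentiated libraries, 23.4, 23.5 and 21.4 RPKM in alpha libraries and 38.2, 39.8 and 41.2 RPKM in beta libraries. The transdifferentiated libraries were above all 3 alpha libraries and overlapped the beta libraries. The means were 37.7 ± 2.28 (SD, n = 2) RPKM in transdifferentiated, 22.8 ± 1.21 (n = 3) in alpha and 39.7 ± 1.49 (n = 3) in beta cells. The gene was higher in transdifferentiated than in alpha cells by 0.73 on the log2 scale (SE 0.08, adjusted p = 0.000697, limma), with both libraries above every alpha library. Against beta cells the difference was -0.09 (SE 0.08, adjusted p = 0.433, limma), with a 95% interval of -0.27 to 0.08. Alpha cells were lower than beta cells by 0.83 (log2 fold change -0.83, SE 0.07, adjusted p = 0.000149, limma). Sstr3 was the most abundant of the 6 receptors, above 91.3% of tested genes by mean RPKM in transdifferentiated cells, 87.0% in alpha cells and 91.4% in beta cells. It stood at 98.9% and 90.8% of the beta mean in the transdifferentiated libraries. In the same libraries Pdx1, a beta cell transcription factor, stood at 82.6% to 86.7%, Ins2 at 63.0% and 68.1%, and Mafa, a factor of mature beta cells, at 32.1% and 37.5%. The gene length behind its RPKM values was solved as 3928 bases, where the annotation has 4320. Its reads were the most numerous of the family, 192 and 307 in transdifferentiated libraries, 1183 to 1240 in alpha and 2319 to 3345 in beta libraries.

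Sstr2 encodes the receptor known in rodents as the main somatostatin receptor of alpha cells, through which somatostatin suppresses glucagon secretion. It had 1.5 and 2.37 RPKM in transdifferentiated libraries, 13.9, 16.9 and 16.3 RPKM in alpha libraries and 0.0750, 0.153 and 0.130 RPKM in beta libraries. The 3 groups did not overlap, with the transdifferentiated libraries between the alpha and the beta libraries. The means were 1.93 ± 0.614 (SD, n = 2) RPKM in transdifferentiated, 15.7 ± 1.57 (n = 3) in alpha and 0.119 ± 0.0399 (n = 3) in beta cells. The gene was lower in transdifferentiated than in alpha cells (log2 fold change -2.78, SE 0.19, adjusted p = 0.000132, limma) and higher than in beta cells (1.98, SE 0.19, adjusted p = 0.00316). Alpha cells were higher than beta cells by 4.76 (SE 0.17, adjusted p = 4.28e-06, limma). The transdifferentiated values rest on 4 and 11 reads, and the beta values on 3, 7 and 4 reads. The 95% counting intervals of the transdifferentiated libraries were 0.409 to 3.84 and 1.18 to 4.24 RPKM, above the highest upper bound of the beta libraries (0.333 RPKM). The added 0.5 RPKM weighs on such low levels. With 0.1 RPKM in its place the difference from beta cells was 3.22 (adjusted p = 0.00287), and with the limma voom test on recovered reads it was 3.92 (adjusted p = 0.00474), while alpha cells were then 7.05 above beta cells. The call against beta cells was lost in the fit of those 2 groups alone (adjusted p = 0.0768), and it held without any single library.

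The Sstr2 level in the transdifferentiated libraries was 9.56% and 15.1% of the alpha mean. Alpha cell genes stood at like shares there: Gcg, the glucagon gene, at 10.8% and 10.6%, the transcription factor Irx1 at 12.7% and 17.7%, and Ttr at 13.7% and 16.4%. Irx2, another factor of alpha cells, stood higher, at 31.3% and 36.8%. Because the libraries are bulk pools, alpha cells in the gate, fewer cells expressing a gene and less of its RNA per cell cannot be told apart.

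Sstr2 lies inside the gene Slc39a11, a zinc transporter, on the opposite strand (chr11:113619342-113626028, plus strand, GRCm38, GENCODE M21). The kit used does not mark strand, so strand could not separate reads that fall where the 2 genes overlap. The overlap was found from gene spans, and whether their exons overlap was not examined. Slc39a11 had 10.0 and 15.0 RPKM in transdifferentiated libraries, 21.6, 20.8 and 22.8 RPKM in alpha libraries and 9.45, 8.96 and 9.92 RPKM in beta libraries. It was lower in transdifferentiated than in alpha cells (log2 fold change -0.83, SE 0.15, adjusted p = 0.00668, limma). The share of Slc39a11 reads in the Sstr2 count was not tested. In the beta libraries Sstr2 was at 0.0750 to 0.153 RPKM while Slc39a11 was at 8.96 to 9.92 RPKM.

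The 250 bases upstream of a start site are printed for each of Sstr2, Sstr3 and Ghsr, the receptors on which the comparisons turn. No entry was used for the others. They come from RefSeq (build GRCm38.p6). The windows are chr11:113619077-113619326 on the plus strand for Sstr2, chr15:78541407-78541656 on the minus strand for Sstr3 and chr3:27371101-27371350 on the plus strand for Ghsr. Capitals mark TGACGTCA, the cyclic AMP response element, and GGGCGG, the GC box, on either strand.
Sstr2: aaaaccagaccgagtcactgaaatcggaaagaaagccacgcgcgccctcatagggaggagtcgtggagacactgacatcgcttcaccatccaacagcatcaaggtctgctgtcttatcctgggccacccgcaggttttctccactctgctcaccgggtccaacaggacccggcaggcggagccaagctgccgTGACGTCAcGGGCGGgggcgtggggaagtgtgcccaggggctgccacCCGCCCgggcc
Sstr3: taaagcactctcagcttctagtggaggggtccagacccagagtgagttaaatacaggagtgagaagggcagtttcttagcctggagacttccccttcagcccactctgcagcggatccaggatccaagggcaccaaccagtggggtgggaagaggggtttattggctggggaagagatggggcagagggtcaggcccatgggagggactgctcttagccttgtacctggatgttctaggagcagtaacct
Ghsr: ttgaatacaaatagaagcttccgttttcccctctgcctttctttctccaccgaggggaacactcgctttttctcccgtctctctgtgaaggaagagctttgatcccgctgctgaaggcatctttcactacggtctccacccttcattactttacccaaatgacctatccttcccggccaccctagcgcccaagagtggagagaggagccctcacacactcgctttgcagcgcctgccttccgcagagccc
The Sstr2 window holds TGACGTCA 58 bases and GGGCGG 49 bases before the start, with a second GC box on the other strand 11 bases before it, and the 2 motifs do not overlap. The other 2 windows hold neither motif. Among 32851 windows of the same kind, TGACGTCA was in 1.55% and GGGCGG in 32.7%. TAATTA (homeobox core, 4.84% of windows), TGTTTAC (forkhead site, 3.17%) and TATAAA (12.4%) were searched on both strands and had no match in the 3 windows. The printed Sstr3 window lies within the Sstr3 gene in an intron of GENCODE M21. A second start site of Sstr3, at chr15:78544345, has a window that overlaps an Sstr3 exon and is not printed. A match is a description of these letters and nothing was drawn from its absence.

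Sstr1 (chr12:58211772-58214444, plus strand) encodes a receptor close in sequence to Sstr4, with 65.3% of coding bases alike. It had 0.785 and 2.03 RPKM in transdifferentiated libraries, 0.946, 0.837 and 1.07 RPKM in alpha libraries and 0.131, 0.411 and 0.102 RPKM in beta libraries. The transdifferentiated and alpha libraries overlapped, and both lay above the beta libraries. The means were 1.41 ± 0.879 (SD, n = 2) RPKM in transdifferentiated, 0.953 ± 0.119 (n = 3) in alpha and 0.215 ± 0.171 (n = 3) in beta cells. The gene was higher in transdifferentiated than in beta cells by 1.44 (SE 0.31, adjusted p = 0.0297, limma), and in alpha than in beta cells by 1.20 (SE 0.28, adjusted p = 0.0135). Against alpha cells the difference was 0.24 (SE 0.31, adjusted p = 0.602, limma). The transdifferentiated values rest on 2 and 9 reads, and the counting interval of replicate 1 (0.0951 to 2.84 RPKM) overlapped the beta libraries. The call against beta cells was lost without transdifferentiated replicate 2 (1.04, adjusted p = 0.0989), without beta replicates 1, 2 or 3 (adjusted p = 0.0793, 0.0549 and 0.0993), without alpha replicate 2 (0.0603), with no filter on low values (0.0579) and in the fit of those 2 groups alone (0.101). The alpha against beta call was lost without beta replicate 3 (adjusted p = 0.0576). With voom on recovered reads the difference from beta cells was 2.87 (adjusted p = 0.0308) in transdifferentiated and 2.47 in alpha cells.

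Sstr4 (chr2:148395344-148396767, plus strand) and Sstr5 (chr17:25489875-25497288, minus strand) encode the remaining receptors, and Sstr5 is known from work in rodents as a receptor of beta cells. Sstr4 had 0 and 2 reads in transdifferentiated libraries, 1, 0 and 1 reads in alpha libraries and 0, 1 and 0 reads in beta libraries. Sstr5 had 1 and 0 reads in transdifferentiated libraries, 0, 0 and 2 reads in alpha libraries and 1, 3 and 1 reads in beta libraries. All 8 libraries were at or under 3 reads for both genes, so no change is read from them. With 3 reads taken as the limit that a count of 0 allows, a count of 0 in transdifferentiated replicate 1 allows Sstr4 up to 1.69 RPKM and in replicate 2 Sstr5 up to 0.506 RPKM, whereas 0 reads in alpha or beta libraries allow at most 0.157 RPKM. The 95% intervals drawn for these libraries, which are two-sided, reach higher, to 2.08, 0.623 and at most 0.193 RPKM. These counts are too low for a difference between the groups to be detectable at this depth. Sstr3 and Sstr5 share a stretch of 41 identical coding bases, and the handling of reads that match both was not given in the sources used here.

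**Figure D3:**
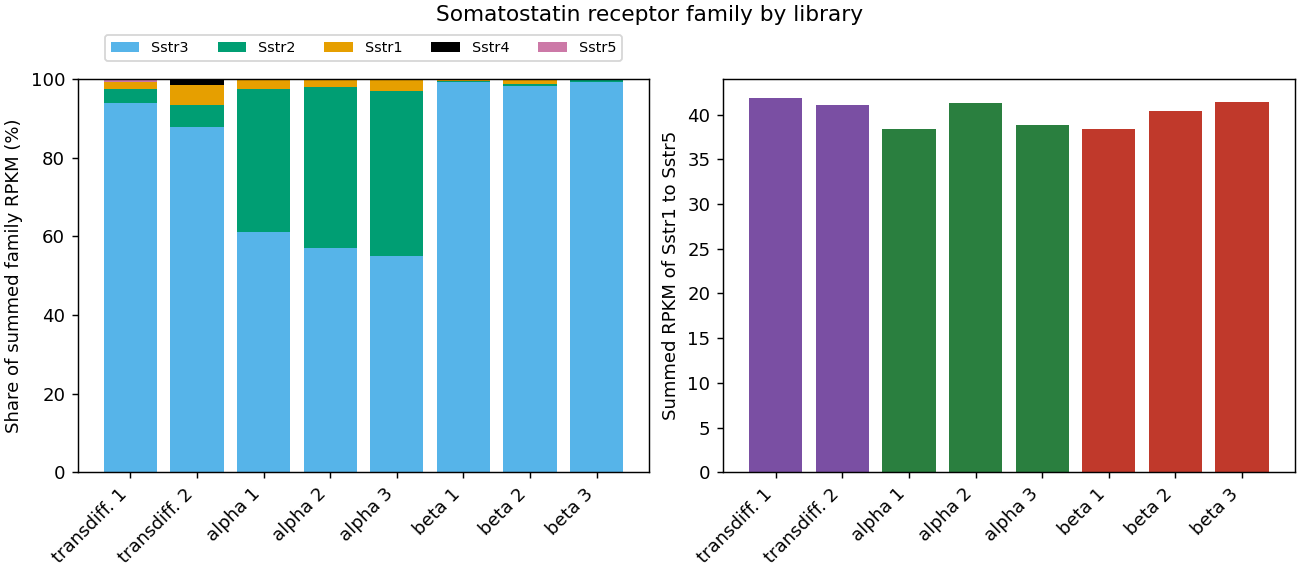
Left, share (%) of the summed RPKM of Sstr1 to Sstr5 in each library; right, that sum in RPKM, in both panels by library and with bars from 0. Sstr3 makes up 87.7% to 93.8% in transdifferentiated cells, 55.1% to 61.1% in alpha cells and 98.4% to 99.4% in beta cells.

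In RPKM as deposited, the 5 somatostatin receptors summed to near the same level in all groups. The sums were 41.9 and 41.1 RPKM in transdifferentiated and 38.3, 41.2 and 38.8 RPKM in alpha libraries. Beta libraries had 38.4, 40.4 and 41.4 RPKM. The sum was not recomputed with another scaling, which can move levels between groups. With median-ratio scaling, Sstr3 was 0.51 higher in transdifferentiated than in alpha cells on the log2 scale, against 0.73 without it. In the deposited values the mix differed. Sstr3 supplied 93.8% and 87.7% of the sum in transdifferentiated, 61.1%, 57.0% and 55.1% in alpha, and 99.4%, 98.4% and 99.4% in beta libraries. Sstr2 supplied 3.58% and 5.76% in transdifferentiated, 36.3%, 41.0% and 41.9% in alpha, and 0.195%, 0.377% and 0.314% in beta libraries. Sstr1 supplied 1.88% and 4.94% in transdifferentiated, 2.03% to 2.77% in alpha and 0.247% to 1.02% in beta libraries. These shares are descriptions of levels per length and were not tested. By reads rather than RPKM, Sstr3 supplied 71.5% in alpha cells on average, against 57.7% by RPKM, because the genes differ in length.

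Ghsr (chr3:27371351-27378010, plus strand) encodes the ghrelin receptor, on which the stomach hormone ghrelin acts. It had 3.08 and 2.19 RPKM in transdifferentiated libraries, 1.48, 0.605 and 0.544 RPKM in alpha libraries and 0.206, 0.601 and 0.205 RPKM in beta libraries. Both transdifferentiated libraries were above every other library, while alpha and beta libraries overlapped. The means were 2.63 ± 0.634 (SD, n = 2) RPKM in transdifferentiated, 0.878 ± 0.526 (n = 3) in alpha and 0.337 ± 0.229 (n = 3) in beta cells. The gene was higher in transdifferentiated than in beta cells by 1.89 (SE 0.38, adjusted p = 0.0248, limma) and than in alpha cells by 1.26 (SE 0.38, adjusted p = 0.0422). Alpha and beta cells differed by 0.63 (SE 0.35, adjusted p = 0.182, limma). The values rest on 17 and 21 reads in transdifferentiated, 85, 36 and 34 in alpha and 17, 57 and 13 in beta libraries. The counting intervals of the transdifferentiated libraries (1.80 to 4.93 and 1.35 to 3.34 RPKM) lay above the highest beta bound, 0.778 RPKM, and overlapped that of alpha replicate 1, 1.19 to 1.84 RPKM. The call against beta cells was lost without transdifferentiated replicate 1 or 2 (adjusted p = 0.0914 and 0.0547), without beta replicate 1 or 3 (0.0744 and 0.108), with no filter (0.0608), with quantile normalization (0.0704), with the title letter as a term (0.0531) and in the fit of the 2 groups alone (0.0852). The call against alpha cells was lost in 12 of 18 alternatives, with adjusted p up to 0.188 without transdifferentiated replicate 1, and also without transdifferentiated replicate 2 (0.0786), beta replicate 1 (0.0628), alpha replicate 2 (0.109) or alpha replicate 3 (0.162). With voom on recovered reads Ghsr was 2.87 above beta cells (adjusted p = 0.0481). Among libraries without the title letter, alpha replicate 1 had 1.48 RPKM and beta replicate 1 had 0.206 RPKM, a single library of each.

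Markers of delta cells differed between the groups as well, not all in the order of Ghsr. Sst, the somatostatin gene, had 2885 and 2749 RPKM in transdifferentiated libraries, 2845, 1000 and 1357 RPKM in alpha libraries and 465.0, 849.0 and 289.5 RPKM in beta libraries. Hhex, a transcription factor of delta cells, had 7.12 and 4.09 RPKM in transdifferentiated, 4.84, 1.75 and 2.44 RPKM in alpha and 0.922, 2.29 and 0.727 RPKM in beta libraries. Within alpha and within beta cells the library highest for Sst and Hhex, alpha replicate 1 and beta replicate 2, was also highest for Ghsr. Sst was higher in transdifferentiated than in beta cells by 2.58 (SE 0.53, adjusted p = 0.0273, limma) and in alpha than in beta cells by 1.78 (adjusted p = 0.0237), and was not called against alpha cells (0.80, adjusted p = 0.299). Hhex was called in no comparison, at 1.80 against beta cells (adjusted p = 0.0561, limma), 0.86 against alpha cells (adjusted p = 0.231) and 0.94 between alpha and beta cells (adjusted p = 0.132). Rbp4, a retinol carrier that other islet cells also express, had 200.1 and 212.0 RPKM in transdifferentiated, 346.2, 368.0 and 305.4 RPKM in alpha and 20.6, 39.2 and 21.9 RPKM in beta libraries. Unlike Ghsr it was lower in both transdifferentiated libraries than in every alpha library, a difference that was not called (log2 fold change -0.73, adjusted p = 0.0762, limma), and it was higher than in beta cells by 2.97 (adjusted p = 0.00282). Ptprz1, which did not pass the filter, had 0.846 and 0.971 RPKM in transdifferentiated, 0.690, 0.267 and 0.344 RPKM in alpha and 0.135, 0.321 and 0.0881 RPKM in beta libraries, with both transdifferentiated libraries highest, as for Ghsr. The call of Sst in transdifferentiated against beta cells was lost without transdifferentiated replicate 1 or 2 or beta replicate 1 or 3, where limma called 0 of the 3 tested ligands. The 6 delta markers summed to 3094 and 2966 RPKM in transdifferentiated, 1370 to 3196 in alpha and 312.3 to 891.0 in beta libraries. Among them Cckbr was at 0 in all libraries but beta replicate 2, and Prg4 was at 0 in transdifferentiated replicate 2. Ghsr per 1000 RPKM of Sst was 1.07 and 0.795 in transdifferentiated, 0.522, 0.605 and 0.401 in alpha and 0.442, 0.708 and 0.706 in beta libraries, so the transdifferentiated libraries stayed highest on this ratio by a smaller margin. Ghsr per RPKM of Hhex was 0.433 and 0.534 in transdifferentiated, 0.223 to 0.346 in alpha and 0.223 to 0.281 in beta libraries. The transdifferentiated Ghsr values rest on 17 and 21 reads, with counting intervals of 1.80 to 4.93 and 1.35 to 3.34 RPKM. This counting error was not carried into either ratio, and the order of the libraries on them was not tested. The part of delta cell RNA in the Ghsr result was not tested.

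**Figure D4:**
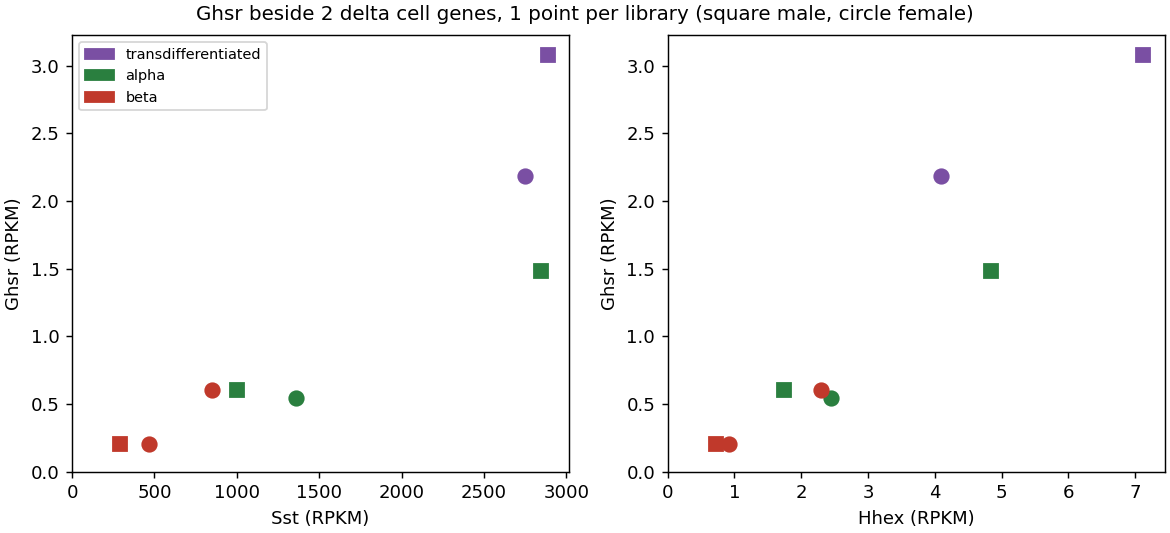
Ghsr RPKM (vertical axis) against Sst RPKM (left) and Hhex RPKM (right), 1 point per library, squares male and circles female pools. The 2 transdifferentiated libraries are highest for Ghsr, and alpha replicate 1, at 2845 RPKM of Sst, is highest of the alpha libraries.

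The 3 markers of PP and epsilon cells summed to 11439 and 8249 RPKM in transdifferentiated, 13025, 7961 and 8870 RPKM in alpha and 589.7, 1274 and 727.0 RPKM in beta libraries. As for Ghsr, alpha replicate 1 was the highest alpha library and beta replicate 2 the highest beta library, while the transdifferentiated and alpha libraries overlapped. Of these markers Ppy, the pancreatic polypeptide gene, was higher in transdifferentiated than in beta cells by 3.32 (adjusted p = 0.00538, limma) and Pyy, the peptide YY gene, by 3.88 (adjusted p = 0.00303). Neither was called against alpha cells (0.14, adjusted p = 0.814, and -0.12, adjusted p = 0.837, limma). Immune markers summed to 15.1 and 2.62 RPKM in transdifferentiated, 1.70 to 2.41 in alpha and 43.7 to 51.5 in beta libraries, with Ptprc at 0 in both transdifferentiated libraries. Acinar markers ranged from 35.4 to 2992 RPKM over the libraries with no group apart. Endothelial markers reached 5.95 RPKM and stellate markers 1.85 RPKM at most, both in transdifferentiated replicate 1. In transdifferentiated replicate 2 they summed to 1.33 and 0.364 RPKM. Duct markers reached 10.7 RPKM at most, in beta replicate 2. The part of these cells in the receptor values was not tested.

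None of the 4 tested receptors was called between male and female pools, where sex and pool of islets cannot be told apart. The male minus female differences were 0.18 for Ghsr, -0.16 for Sstr2, -0.45 for Sstr1 and 0.11 for Sstr3 on the log2 scale. Limma called 0 of 4 receptors by adjusted p and 0 at an unadjusted p under 0.05, and voom on recovered reads called 0. Of all tested genes 0.0456% were called (0.038% higher and 0.00759% lower in male pools). For Sstr2, transdifferentiated minus alpha was -2.98 in male and -2.55 in female pools on the log2 scale. For Ghsr, transdifferentiated minus beta was 2.35 in male and 1.61 in female pools, and transdifferentiated minus alpha was 1.27 in male and 1.36 in female pools. A fit of whether these group differences differed between the sexes called no receptor, with a lowest adjusted p of 0.575 (limma).

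Of the ligands, somatostatin was the one at high level, as given above. Ghrl, which encodes ghrelin, had 0.745 and 0.428 RPKM in transdifferentiated, 3.01, 1.24 and 0.986 RPKM in alpha and 0.298, 0.303 and 0.129 RPKM in beta libraries. It was higher in alpha than in beta cells by 1.41 (SE 0.37, adjusted p = 0.020, limma), and not called in transdifferentiated cells against beta cells (0.50, adjusted p = 0.433) or alpha cells (-0.92, adjusted p = 0.129). The transdifferentiated values of Ghrl rest on few reads, since a single read on a 2 kb gene equals 0.402 and 0.231 RPKM there. Cort, the gene of the somatostatin relative cortistatin, had 0 and 1.36 RPKM in transdifferentiated, 0.229, 1.43 and 1.57 RPKM in alpha and 0.158, 0.276 and 0.309 RPKM in beta libraries and was not called. Mboat4, which encodes the enzyme that acylates ghrelin, had 0.874 and 0 RPKM in transdifferentiated libraries, 0.386 to 0.632 in alpha and 0.117 to 0.341 in beta libraries. Leap2, an antagonist of the ghrelin receptor, was at 0 reads in both transdifferentiated libraries, 0.140 to 0.534 RPKM in alpha and 0 to 0.394 RPKM in beta libraries. At the depth of the transdifferentiated libraries a count of 0 does not exclude such levels. Mboat4 and Leap2 did not pass the filter, nor did Mrap2, an accessory protein of the ghrelin receptor, at 0.712 and 0.204 RPKM in transdifferentiated libraries.

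The genes through which these receptors act were described from lists of pathway genes, of which 54 were tested. Against beta cells, 15 were higher and 2 lower in transdifferentiated cells, with 37 not called, where 9.1% of all tested genes were higher and 2.9% lower. Against alpha cells, 22 were higher and 7 lower, beside 23.2% and 6.67% of all tested genes. Between alpha and beta cells 17 were higher and 18 lower in alpha cells, beside 16.9% and 26.7% of all tested genes. The same shares are the background of each list that follows, and nothing particular to a list is read from its count. The median log2 fold change of the 54 genes was 0.24, 0.31 and 0.03, beside 0.09, 0.17 and -0.05 over all genes. With quantile normalization 11 were higher and 3 lower than in beta cells, 17 higher and 9 lower than in alpha cells, and with median-ratio scaling 13 and 4, and 17 and 8. The count against beta cells moved with single libraries. It was 6 without transdifferentiated replicate 1, 11 without transdifferentiated replicate 2, 8 without beta replicate 1, 3 without beta replicate 3, 8 without alpha replicate 2 and 10 without alpha replicate 3, and 0 in the fit of the 2 groups alone, where 26 had an unadjusted p under 0.05 by limma.

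All 8 G protein alpha subunits were tested, and Gnai1, Gnai2 and Gnai3, the inhibitory ones named for that role, lay between alpha and beta libraries in both transdifferentiated libraries. Gnai1 had 12.0 and 14.4 RPKM in transdifferentiated, 37.6, 45.5 and 48.5 RPKM in alpha and 2.87, 6.33 and 5.69 RPKM in beta libraries. It was higher than in beta cells by 1.39 (adjusted p = 0.0306, limma) and lower than in alpha cells (-1.69, adjusted p = 0.00647). Gnai2 and Gnai3 ran the other way. Gnai2 had 195.8 and 210.4 RPKM in transdifferentiated, 86.8, 86.2 and 77.9 RPKM in alpha and 283.2, 241.4 and 305.7 RPKM in beta libraries, higher than in alpha cells by 1.29 and lower than in beta cells (log2 fold change -0.46). Gnai3 was lower than in beta cells as well (-0.64). In this list 3 genes were higher and 2 lower than in beta cells, 4 higher and 2 lower than in alpha cells, with Gnas at 1.41 against beta cells and -2.16 against alpha cells. Between alpha and beta cells 3 were higher and 4 lower, with Gnas at 3.57, Gnai1 at 3.08 and Gnai2 at -1.75. Gnas is a complex locus of overlapping transcripts, so its value is uncertain.

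The potassium channels opened by these G proteins were measured through Kcnj3 and Kcnj6, the tested pair of 4 genes. Kcnj3 had 0.462 and 0.442 RPKM in transdifferentiated, 6.43, 5.68 and 6.35 RPKM in alpha and 0.0411, 0.116 and 0.0401 RPKM in beta libraries. Its level was lower in transdifferentiated than in alpha cells (log2 fold change -2.81, adjusted p = 0.000156, limma), and alpha cells were above beta cells by 3.57. Against beta cells the transdifferentiated cells differed by 0.76, just short of a call (adjusted p = 0.0502, limma). Few reads lie behind the transdifferentiated values, since a single read on a 2 kb gene equals 0.402 and 0.231 RPKM there. Kcnj6 was higher in alpha than in beta cells by 1.23 and was not called in the other comparisons. Of the 5 tested calcium channel pores, Cacna1g (T-type) was higher in transdifferentiated than in beta cells by 1.49 and Cacna1a (P/Q-type) by 0.87. None was called against alpha cells, and alpha cells exceeded beta cells in Cacna1g by 1.73 and in Cacna1b (N-type) by 0.56. Of 4 tested adenylyl cyclases, Adcy6 was higher than in beta cells by 0.81 and Adcy5 lower than in alpha cells (-1.01). Adcy5 (1.89) and Adcy6 (0.98) were higher and Adcy9 (-0.59) lower in alpha cells when set against beta cells.

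On the side of the ghrelin receptor, 6 phospholipase C beta and IP3 receptor genes were tested. Itpr1, an IP3 receptor that releases calcium, was higher than in beta cells by 1.65 and lower than in alpha cells (-1.12), with 11.9 and 9.18 RPKM in transdifferentiated, 24.4, 22.8 and 23.3 RPKM in alpha and 2.44, 3.98 and 2.68 RPKM in beta libraries. Itpr2 was higher than in alpha cells by 1.62 and Plcb3 by 0.95, and Plcb3 was higher than in beta cells by 0.63. In alpha cells, Itpr1 (2.77) and Plcb4 (0.64) were higher and Itpr2 (-1.78) lower than in beta cells.

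Of 5 tested receptor kinases and arrestins, Arrb2, an arrestin that ends receptor signalling, was higher than in beta cells by 0.77. Against alpha cells 4 were higher, led by Grk5 (1.51), Adrbk2 (0.90) and Arrb2 (0.45). Alpha cells were higher than beta cells in Arrb2 (0.33) and lower in Grk5 (-1.27) and Adrbk2 (-0.55). Of 10 tested RGS proteins, which shorten G protein signals, Rgs9 was higher than in beta cells by 0.98. Against alpha cells 4 were higher and 2 lower, led by Rgs11 (2.44), Rgs4 (-1.60) and Rgs9 (1.19). Set against beta cells, alpha cells had 1 higher and 3 lower, led by Rgs3 (-1.47), Rgs4 (1.21) and Rgs10 (-0.78). Of 5 tested phosphatases and scaffolds that bind somatostatin receptors, the scaffolds Shank2 (1.90) and Shank1 (0.96) were higher than in beta cells, and Shank2 (1.39), Ptpn11 (0.67) and Ptpn6 (0.32) higher than in alpha cells. Shank1 (1.19) was higher and Ptpn11 (-0.96) and Ptpn6 (-0.61) lower in alpha than in beta cells.

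**Figure D5:**
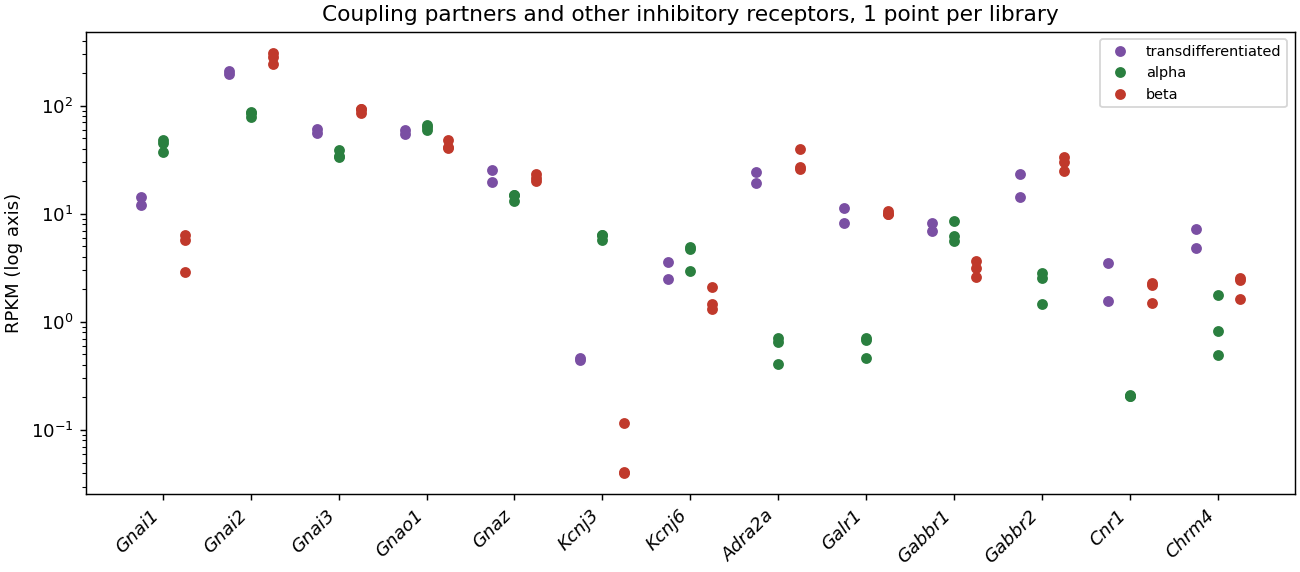
RPKM on a log axis, 1 point per library, for the tested inhibitory G protein alpha subunits, the tested potassium channel subunits and the tested other inhibitory receptors. Gnai1 lies at 12.0 and 14.4 RPKM in transdifferentiated cells, below alpha and above beta libraries, and Adra2a lies at 19.4 to 24.1 RPKM, far above the alpha libraries.

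Other receptors that brake islet secretion were also measured. Of 6 other inhibitory islet receptors tested, 5 were higher in transdifferentiated than in alpha cells and none lower, led by Adra2a (4.38), Galr1 (3.19) and Gabbr2 (2.71). Adra2a, the adrenaline receptor that suppresses insulin secretion, had 24.1 and 19.4 RPKM in transdifferentiated, 0.652, 0.705 and 0.411 RPKM in alpha and 39.6, 25.9 and 27.3 RPKM in beta libraries. Galr1, the galanin receptor, had 11.2 and 8.19 RPKM in transdifferentiated, 0.459, 0.674 and 0.717 RPKM in alpha and 9.97, 10.6 and 10.0 RPKM in beta libraries. Against beta cells 2 were higher, Gabbr1 (1.19) and Chrm4 (1.17), and between alpha and beta cells 1 was higher and 5 lower in alpha cells, led by Adra2a (-4.88), Gabbr2 (-3.31) and Galr1 (-3.28).

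The genes most like each receptor were found by the root mean square difference of centred log2(RPKM + 0.5) over the 8 libraries. For Sstr3 they were Pcyox1 (0.0232), BC031181 (0.0512) and Rnf115 (0.0627), where the median of all genes was 0.432. For Sstr2 they were Gfra3 (0.182), Ugt8a (0.220) and Oxtr (0.227), where the median was 2.09. For Sstr1 they were Pisd-ps1 (0.125), Efnb3 (0.169) and 4633401B06Rik (0.170), with a median of 0.709. For Ghsr they were Abcg2 (0.252), Sult1d1 (0.257) and Hhex (0.257), with a median of 0.843.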

How the data were processed

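RNA of 8 sorted islet cell pools was sequenced, and the authors deposited RPKM per gene and library. STAR 2.5, featureCounts and edgeR 3.14.0 with build GRCm38.p4 were used, per the submitters' processing notes. Annotation and strand setting were not given in the sources used here, and the TruSeq kit named in the labels' protocols does not mark strand. Samples were grouped by the labels, and the receptors and gene lists were chosen with earlier results of these data known. Of 46959 entries, 4 with repeated names were left out. Whole reads were recovered from the steps of the RPKM values: 78.5% of 25353 symbols matched to a length were whole within 0.01 read in all libraries at their GENCODE M21 length, and the length of 6875 other genes was solved. The recovered reads sum to each library's depth, and the Poisson intervals cover counting error only.

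The main test was limma 3.58.1 in R 4.3.3 (lmFit, eBayes with trend, Benjamini-Hochberg) on log2(RPKM + 0.5), in 1 fit of all libraries with group and sex as terms, over 13172 genes with at least 1 RPKM in at least 2 of 8 libraries. It was run on simulated data with changes planted only in genes above the median level, so weakly expressed genes were not covered. Alternatives changed the pseudocount, filter, scaling, covariates, samples and test (voom). Sex-by-group differences were tested in a fit added after the data were seen. Named genes were all 6 receptors, all ligands, up to 3 called genes with the largest log2 fold change per list and comparison, and the 3 genes most like each tested receptor. Upstream windows are from RefSeq and gene positions from GENCODE M21. Values of some marker genes are not reported here.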

Additional observations from a re-analysis of the deposited data

Results flagged for a closer look

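In 4 comparisons the male and female pools of a receptor differed in opposite directions in every library. For Sstr1, transdifferentiated minus alpha was -0.11 in male and 0.68 in female pools on the log2(RPKM + 0.5) scale, and a fit of the difference between sexes gave an adjusted p of 0.583 (limma). The male transdifferentiated library rests on 2 reads. For Sstr5, transdifferentiated minus beta was 0.60 in male and -0.10 in female pools, transdifferentiated minus alpha was 0.67 in male and -0.14 in female pools, and alpha minus beta was -0.072 in male and 0.044 in female pools. The Sstr5 differences were not tested. Each is a difference of log2 values from 0 to 3 reads per library, at or under the limit that a count of 0 allows, and is not read as a change.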

How the results depend on the processing

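Over up to 19 alternative settings per comparison, 284 log2 fold changes of the 4 tested receptors were recomputed. Of these, 253 kept direction and side of the threshold, 29 fell short of it, and 2 changed direction, both uncalled: Sstr1 in transdifferentiated against alpha cells without transdifferentiated replicate 2 (-0.088, with 0.63 at the other end of the range without single replicates), and Ghsr in male against female pools without alpha replicate 3 (-0.00652, up to 0.47 without beta replicate 3). Many of the 284 values are of differences not called in the main fit, which count as kept while they stay uncalled. Ghsr lost its call in 8 of 18 alternatives against beta cells and in 12 of 18 against alpha cells. Sstr1 lost it in 7 of 18 against beta cells and 1 of 18 between alpha and beta cells. Sstr2 lost it in 1 of 18 against beta cells. All calls of Sstr3, and of Sstr2 against alpha cells and between alpha and beta cells, held in every alternative run. The count of receptors called against beta cells was 1 with no filter, 0 with a mean of at least 10 RPKM and 0 in the fit of the 2 groups alone, and ranged from 1 to 3 without single replicates. A mean of at least 10 RPKM left Sstr3 as the one receptor tested, and the counts were then 1 against alpha cells and 1 between alpha and beta cells. Counted by reads, Sstr3 supplied 71.5% and Sstr2 26.9% of the family in alpha cells (57.7% and 39.7% by RPKM), Sstr2 supplied 2.68% in transdifferentiated (4.67%) and 0.162% in beta cells (0.296%), and Sstr1 supplied 1.57% in alpha cells (2.42%). The edgeR test on recovered reads was not run. No paired analysis was run, since no number in the titles is shared between groups and replicate numbers here follow the order of the samples. The sources used here do not say which libraries came from the same islets, so sex and pool of islets cannot be told apart. Sex, which the groups do share, was a term of every fit but 1, and the title letter b was a further term in 1 alternative. Depth limits Sstr4, Sstr5 and the transdifferentiated values of Sstr1 and Sstr2, which rest on 0 to 11 reads.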
